A study of Pimephales promelas with 12 samples.

Results

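The very abundant gut contigs of the fathead minnow are assembled transcript sequences that drew many reads in the gut and few in the other tissues sequenced. A contig was taken as a member when its mean raw count over the 3 gut libraries was at least 5000 and its mean level in gut was at least 4 times that in liver, in hypothalamus and in telencephalon. Levels are library-scaled counts (CPM) adjusted by the trimmed mean of M values (TMM). Of 46309 contigs, 195 (0.421%) were members. Another 314 contigs reached the same gut count without the ratio, so members made up 38.3% of the 509 abundant gut contigs. Members were thus selected on the measured counts of these same libraries, so their excess in gut is described here and was not tested.

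The fathead minnow, Pimephales promelas, is a small cyprinid fish used to test chemicals for toxicity. Its gut, liver, hypothalamus and telencephalon were taken from 3 individual adult males of a laboratory culture, with no treatment given other than the agent used to kill them, and the labels number 3 libraries per tissue. Deviations from the tissue mean correlated between same-numbered libraries, which are therefore read as coming from 1 fish. The libraries held 14546298 to 22589095 counts, and 3 counts corresponded to 0.102 to 0.302 CPM. The 12 libraries are whole tissue, in which fewer cells of a type and less RNA per cell cannot be told apart.

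The lining of the gut digests food and takes up its products, and a few kinds of transcript, such as those for digestive enzymes and for proteins that carry fat, usually fill much of its messenger RNA. Cyprinids have no stomach, and their exocrine pancreas often lies spread along the intestine and may reach into the liver. None of the contig names matched a gene in the gene table of this species, so the role of each member, and the markers of gut, pancreas, liver, brain and blood cells, could not be looked up, and the tissue labels were not tested against defining markers. Contigs are therefore given by name. A name such as FHM_All_PTA_Assem.151.C3 comes from an assembly in which the first number is the cluster of related sequences and the last part is the contig within it.

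The members held 24.4, 25.04 and 26.3% of all counts in the 3 gut libraries, a mean of 25.2% ± 0.930 (SD, n = 3). In liver they held 0.581, 0.453 and 0.578% (mean 0.537% ± 0.0732, SD, n = 3). In hypothalamus the shares were 0.972, 0.587 and 0.535% (0.698% ± 0.239), and in telencephalon 0.794, 0.484 and 0.506% (0.595% ± 0.173). About 25% of the gut reads therefore fell on contigs that took under 1% of the reads in every other library. The brain libraries of fish 1 stood above those of the other fish, and a single contig, FHM_All_PTA_Assem.151.C10, accounted for much of the gap. Without it the shares were 0.662, 0.544 and 0.494% in hypothalamus and 0.551, 0.446 and 0.450% in telencephalon.

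Mean gut counts of the members ran from 5012 to 567709, with a median of 11768 and quartiles of 7270 and 22283. The counts were concentrated in few contigs. The 10 highest members took 42.8% of the members' gut counts, the 50 highest took 70.4%, and the single highest took 11.3%. Members were 6 of the 10 highest contigs by mean gut count among all contigs and 51 of the 100 highest. Longer transcripts draw more reads, and lengths are given only in the names of the long-read isoforms, so the order of counts between contigs is not an order of transcript number.

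The level in gut was 4.03 to 2825 times that in the next tissue, with a median of 39.4. It was under 10 times the next tissue for 50 members, 10 to under 100 times for 71, and at least 100 times for 74, of which 13 passed 1000 times. The next tissue was liver for 120 members, hypothalamus for 44 and telencephalon for 31. The median member stood 83.7 times above liver, 182 times above hypothalamus and 201 times above telencephalon. The order of these tissues rests in part on the TMM factors, which were 0.616 to 0.682 in liver and 1.13 to 1.40 in brain. As raw shares of counts, the members held less in liver (0.537%) than in hypothalamus (0.698%) or telencephalon (0.595%). For some members, given below, liver 3 held most of the liver counts. No member was without any count elsewhere at this depth. In all, 168 had a count in all 12 libraries and 1, FHM_All_PTA_Assem.631.C2, was at 0 in every liver library. The counts could be slight. For the 74 members at least 100 times higher, the median level per library was 0.0983 to 0.126% of the gut mean in brain. In liver it was 0.0570 to 0.390%. The source of such traces was not tested.

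**Figure D1:**
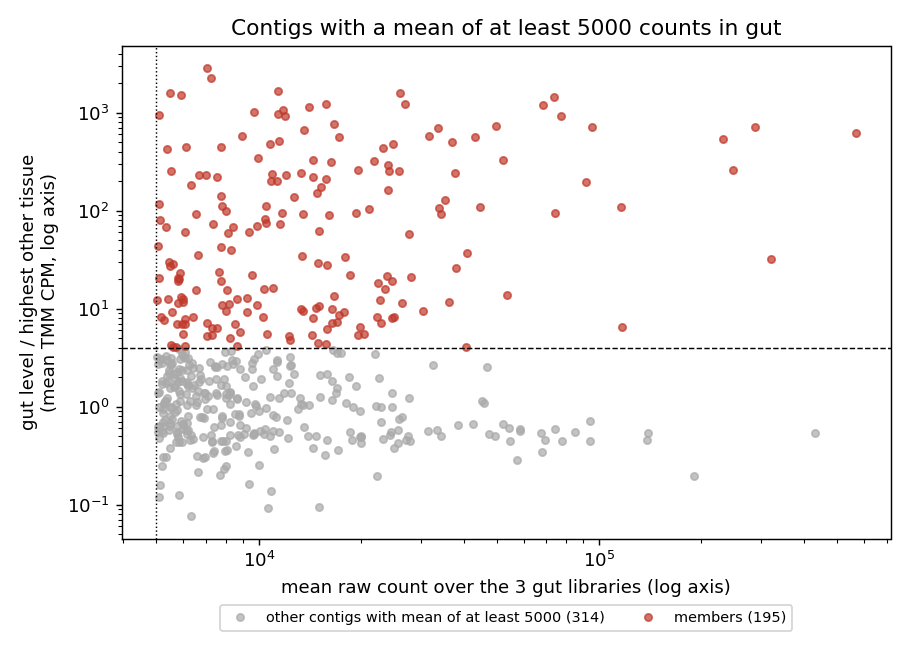
Mean raw count over the 3 gut libraries (x, log axis) against the gut level over that of the highest other tissue (y, mean TMM CPM, log axis) for the 509 abundant gut contigs, each a point. The 195 members lie above the dashed line at 4, and the 314 other contigs lie below it. The highest ratio, 2825, belongs to a member with a mean gut count of 7024.

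At the count threshold, FHM_All_PTA_Assem.3250.C7 was just inside with 3789, 5168 and 6078 gut counts (mean 5012), and the isoform c3199/f2p0/677 was just outside with 4186, 5485 and 5253 (mean 4975) although its gut level was 54.8 times the next tissue. At the ratio threshold, FHM_All_PTA_Assem.1289.C1 was just inside at 4.03 times, and FHM_All_PTA_Assem.20484.C1 was just outside at 3.85 times. Neither threshold therefore marks a gap in the data.

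The most abundant contig of the whole gut table was FHM_All_PTA_Assem.750.C1. It gave 426796, 581986 and 694344 gut counts, 11, 43 and 1428 in liver, 350, 539 and 537 in hypothalamus, and 787, 386 and 308 in telencephalon. Its level was 30878 ± 7357 CPM in gut and 49.7 ± 81.5 CPM in liver (SD, n = 3). The liver SD exceeded the liver mean because 1 library, liver 3, held nearly all of the liver counts. The same shape returned in 4 other members of the 10 highest. FHM_All_PTA_Assem.3945.C1 had 4, 17 and 628 counts in liver beside 234557, 267670 and 360812 in gut. FHM_All_PTA_Assem.728.C2 had 5 and 8 in liver 1 and 2 and 678 in liver 3, with gut at 159384, 291563 and 243010. The liver counts of FHM_All_PTA_Assem.2869.CB2 were 2, 4 and 212 (gut 72710, 129894 and 84363), and those of FHM_All_PTA_Assem.1329.C1 were 1, 4 and 132 (gut 68479, 74274 and 89768). In all 5, gut stood 540 to 919 times above the next tissue, which was liver, and fish 1 and fish 2 had fewer counts in liver than in either brain region.

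Other members of the 10 highest had more even liver counts. For FHM_All_PTA_Assem.1329.C2 they were 334, 563 and 663 beside gut counts of 266106, 238593 and 239359. For FHM_All_PTA_Assem.19627.C1 they were 753, 447 and 559 beside 115953, 103779 and 128199, and for FHM_All_PTA_Assem.1106.CB1 they were 269, 226 and 273 beside 72595, 94135 and 108306. Their brain counts were 108 to 341 per library. Liver was higher than telencephalon for all 3, by 2.95, 2.55 and 1.97 on the log2 scale (edgeR adjusted p = 0.000736, 0.000510 and 0.00594). The remaining pair was also high in brain. FHM_All_PTA_Assem.184.C1 gave 435358, 262888 and 260400 gut counts, 3170, 4107 and 2777 in liver, 11143, 22695 and 8937 in hypothalamus, and 3184, 4408 and 715 in telencephalon. Gut was 32.2 times the hypothalamus. FHM_All_PTA_Assem.151.C10, with 94487, 152697 and 104285 counts in gut, was only 6.55 times above the hypothalamus, where it had 64917, 9784 and 7705.

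**Figure D2:**
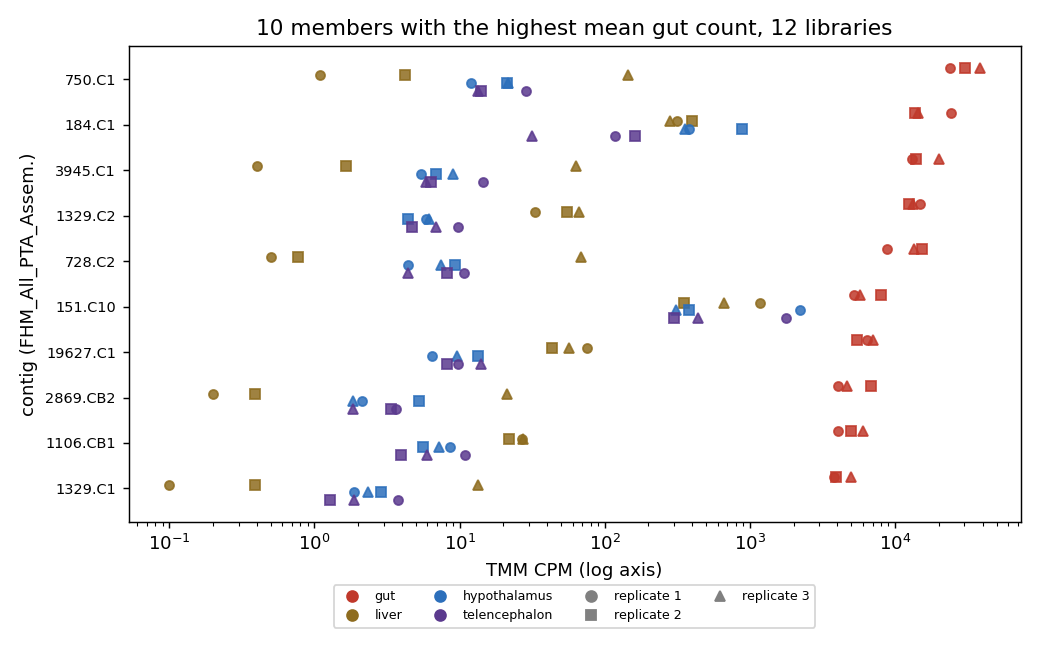
TMM CPM (log axis) of the 10 members with the highest mean gut count in the 12 libraries; color marks the tissue and symbol shape the replicate. Gut points lie furthest right for every contig, and the liver triangle (replicate 3) of 750.C1, 3945.C1, 728.C2, 2869.CB2 and 1329.C1 lies far right of the other liver symbols.

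At the other end, the largest contrasts belonged to contigs that were nearly silent outside the gut. FHM_All_PTA_Assem.631.C3 stood 2825 times above the hypothalamus, where it had 11 counts over the 3 libraries, and FHM_All_PTA_Assem.2785.C2 stood 2276 times above it with 13 counts there. The second gave gut counts of 10014, 7602 and 4139 and liver counts of 0, 0 and 2. These ratios rest on few counts and are correspondingly loose.

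Whether the members differed among the tissues other than gut was tested in the pairs without a gut library, since the selection only capped these tissues at 0.25 of the gut level. Liver was compared with telencephalon by edgeR's quasi-likelihood test, with p-values adjusted over all 42878 contigs tested, of which all 195 members were part. Of the members, 68 (34.9%) were higher in liver and 17 (8.72%) were higher in telencephalon. Over all contigs tested, 16.6% were higher in liver and 22.2% were higher in telencephalon. The median log2 fold change was 0.77 over the members and -0.19 over all contigs tested. Of the 314 other abundant gut contigs, 74.2% were higher in liver and 10.2% were higher in telencephalon. The balance of the members was thus toward liver where that of all contigs was toward telencephalon. The other abundant gut contigs also leaned to liver, so a lean to liver was not particular to the members. Their larger share cannot be weighed against that of the members. The rule itself places an abundant contig in that group when its liver level passes 0.25 of its gut level.

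The comparison of liver with hypothalamus shares the liver libraries and gave the same order of shares. Of the members, 57 (29.2%) were higher in liver and 14 (7.18%) were higher in hypothalamus, against 11.5% and 18.5% of all contigs tested. Among the other abundant gut contigs, a group formed by the same rule, the shares were 64.0% and 9.87%. The median log2 fold change was 0.50 over the members and -0.30 over all contigs. In all, 54 members were higher in liver than in both brain regions, 12 lay above liver in both, and 105 passed in neither comparison. The share of all contigs was not taken for these joint counts, so they describe the members only.

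Liver libraries had far lower TMM factors than brain libraries, and with library size alone the median log2 fold change of all contigs moved by -1.12 for liver against telencephalon and by -0.98 for liver against hypothalamus. The calls of the members then split into 48 higher and 49 lower, and into 41 higher and 44 lower. Leaving out liver 3 gave 62 higher in liver and 31 higher in telencephalon, and 49 higher in liver and 30 higher in hypothalamus. Without any other single library the calls higher in brain numbered 11 to 14 and 9 to 10, of which 11 came without liver 1, telencephalon 2 or telencephalon 3 and 9 without liver 1 or hypothalamus 1. The shares of all contigs were not taken under these settings. These splits therefore describe the members only and do not show how they stood relative to all contigs.

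**Figure D3:**
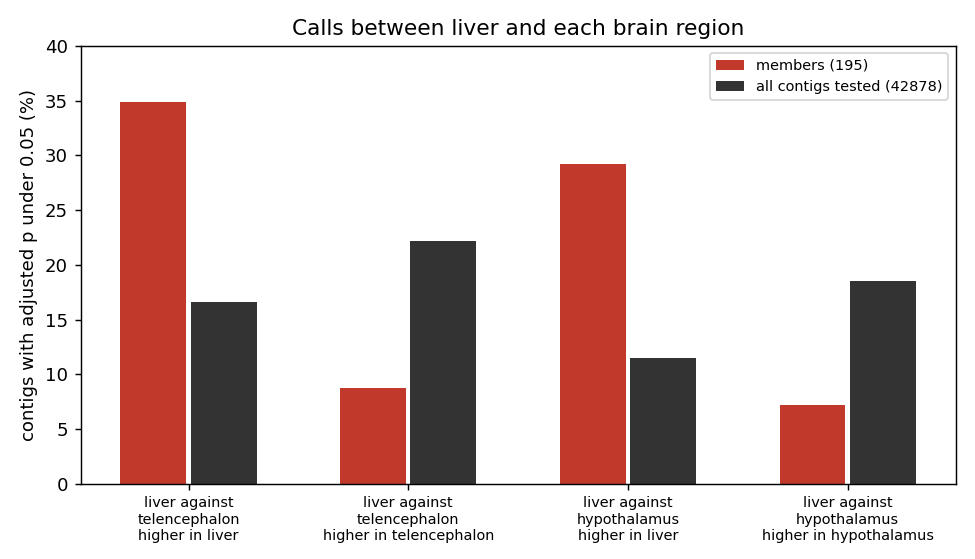
Percent of contigs with an adjusted p under 0.05 in liver against each brain region, by direction, for the 195 members and all 42878 contigs tested; bars start at 0. The member bars are the taller for calls higher in liver (34.9% and 29.2%) and the shorter for calls higher in brain (8.72% and 7.18%). The 314 other abundant gut contigs, not drawn, had 74.2% and 64.0% higher in liver, but the rule itself places abundant contigs with a high liver level among them.

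Among members higher in liver, FHM_All_PTA_Assem.16777.C2 had the largest change by the naming rule. It gave 6528, 6958 and 7589 gut counts, 567, 224 and 837 in liver, 8, 8 and 3 in hypothalamus, and 10, 16 and 8 in telencephalon. Liver and brain did not overlap, and liver was higher than telencephalon by 7.04 and than hypothalamus by 7.80 on the log2 scale (edgeR adjusted p = 0.000106 and 6.47e-05). Next against telencephalon came FHM_All_PTA_Assem.11337.C2, with 16122, 17000 and 16762 counts in gut, 1635, 51 and 355 in liver and 11 to 45 in the brain libraries (log2 change 7.03, adjusted p = 0.00418, and 5.30 without liver 1). Next against hypothalamus came FHM_All_PTA_Assem.3499.C1, with 4012, 7310 and 6551 counts in gut, 170, 382 and 861 in liver and 12, 12 and 21 in hypothalamus (6.34, adjusted p = 0.000254, and 5.55 without liver 3). All 3 are contigs of gut and liver with traces in brain.

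Fewer members showed the reverse, a level in brain with almost none in liver. FHM_All_PTA_Assem.1066.C2 gave 20141, 25268 and 25128 gut counts, 49, 60 and 65 in liver, 1810, 1440 and 1799 in hypothalamus, and 2235, 2295 and 1752 in telencephalon. The liver level was below that of telencephalon by a log2 change of -3.71 (edgeR adjusted p = 1.08e-05). FHM_All_PTA_Assem.5022.C1 had 14654, 13358 and 8034 counts in gut, 2 in each liver library, 77, 64 and 72 in hypothalamus, and 87, 58 and 71 in telencephalon (log2 change -3.68, adjusted p = 0.000744 against telencephalon). Its brain counts were even across fish and regions but slight, at 2.11 to 3.19 CPM beside 444 to 814 CPM in gut. FHM_All_PTA_Assem.5451.C1 gave 4653, 5297 and 5547 gut counts, 55, 20 and 16 in liver, and 858, 1306 and 587 in hypothalamus (log2 change -3.52, adjusted p = 0.00185 against hypothalamus, and -4.28 without liver 1).

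Between the brain regions, 2 members (1.03%) were higher in hypothalamus and 2 (1.03%) were higher in telencephalon, where 0.252% and 0.226% of all contigs tested passed. At an unadjusted p under 0.05 there were 19 and 9, counts without a share of all contigs to set them against. An expressed sequence tag had 1128, 2609 and 1324 counts in hypothalamus and 253, 231 and 173 in telencephalon (log2 change 2.91, edgeR adjusted p = 0.0264), with 5645, 6028 and 6483 in gut and 1060, 495 and 855 in liver. The isoform c14157/f1p1/2962 had 714, 548 and 766 in hypothalamus and 177, 238 and 134 in telencephalon (1.86, adjusted p = 0.0399). In the other direction, FHM_All_PTA_Assem.3258.C1 had 1977, 1662 and 2044 in hypothalamus and 6376, 5693 and 4485 in telencephalon (-1.59, adjusted p = 0.0137), and FHM_All_PTA_Assem.4806.C1 had 769, 742 and 513 against 1748, 1933 and 1478 (-1.40, adjusted p = 0.0321). The regions did not overlap for any of the 4. These calls were not stable to leaving out a library, with 0 members called without hypothalamus 3 or without any single telencephalon library, 1 without hypothalamus 1 and 5 without hypothalamus 2.

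The liver libraries differed from each other in the members. Liver 3 was the highest liver library by level for 111 members, liver 1 for 53 and liver 2 for 31, whereas 32.3% of all tested contigs with a liver count were highest in liver 3. A set of 28 members had at least 10 counts in liver 3 and a level there at least 5 times that in both other liver libraries. This is 15.7% of the members with at least 10 counts in liver 3, compared with 1.51% of 23834 such contigs among all tested. Of the 28, 24 were among the members at least 100 times higher in gut. The 28 summed to 147, 180 and 4460 counts in liver 1, 2 and 3. In liver 3 their level was 0.188 to 2.82% of the gut level of the same fish, with a median of 0.348%, and the medians were 0.00640% in fish 1 and 0.0111% in fish 2. The 74 members at least 100 times higher in gut together held 0.0152, 0.0153 and 0.0531% of the liver counts, 0.0238 to 0.0249% of the hypothalamus counts and 0.0221 to 0.0314% of the telencephalon counts. The brain libraries of these contigs were thus more alike than the liver libraries. Markers of other cell types could not be set beside these values for want of gene names. Without liver 3, 196 contigs met the membership rule, of which 193 were members.

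A second, smaller set followed another order. In 8 members liver 1 was at least 2 times liver 3, which was at least 2 times liver 2, with at least 50 counts in liver 1, or 7.77% of the 103 members with that many counts compared with 1.29% of 13822 contigs tested. FHM_All_PTA_Assem.2840.C1 had 2173, 72 and 159 counts in liver, where its gut counts were 44121, 35868 and 34370. Singlet_5116 had 1855, 221 and 643 in liver and 16103, 17612 and 15421 in gut, and FHM_All_PTA_Assem.5449.C1 had 1583, 199 and 558 in liver and 15090, 15869 and 14120 in gut. FHM_All_PTA_Assem.5448.C1, numbered next to it, had 1048, 153 and 436 in liver and 8953, 10017 and 8808 in gut. The median coefficient of variation of the 8 in gut was 9.77%, so several were even in gut while uneven in liver. Others were uneven in gut too, where the highest level was up to 3.28 times the lowest. FHM_All_PTA_Assem.22459.C1 had 251, 822 and 611 CPM in gut. FHM_All_PTA_Assem.3304.C1 (662, 293 and 314 CPM) and FHM_All_PTA_Assem.24648.C1 (1309, 1096 and 781 CPM) were highest in fish 1 in gut as in liver. Liver was the next tissue for all 8, and no brain library had more than 105 counts of any of them. FHM_All_PTA_Assem.11337.C2, described above, belongs to this set. These contigs, and the 28, were chosen after their values were seen.

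**Figure D4:**
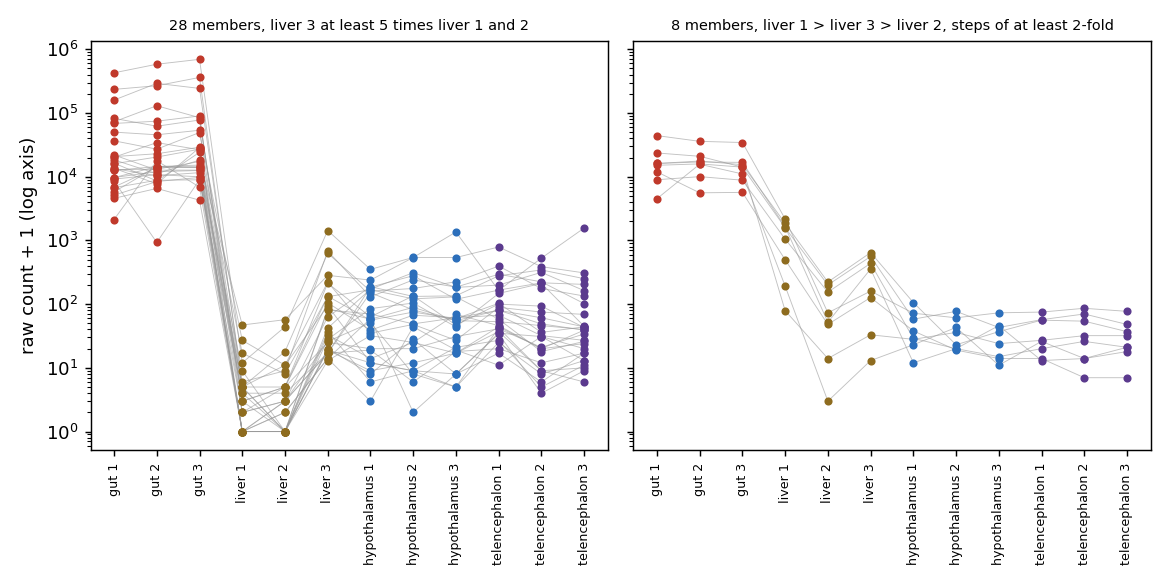
Raw count + 1 (log axis) in the 12 libraries for the 28 members with liver 3 at least 5 times both other liver libraries (left) and the 8 members ordered liver 1, liver 3, liver 2 (right); a line joins the points of a contig and color marks the tissue. On the left, liver 3 sums to 4460 counts against 147 and 180; on the right, brain counts stay at or below 105.

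The gut libraries of the 3 fish were not alike either. The coefficient of variation of the gut level over the fish had a median of 20.01% among members (quartiles 13.6 and 33.9%) and 14.7% among the other abundant gut contigs (quartiles 8.69 and 26.6%). The highest gut level was at least 2 times the lowest for 44 members (22.6%) and for 53 other contigs (16.9%), and at least 10 times for 10 members (5.13%) and 6 others (1.91%). The largest gap was in FHM_All_PTA_Assem.728.C1, with 46441, 31434 and 6 counts in gut, 0, 1 and 2 in liver, 42, 21 and 10 in hypothalamus, and 17, 18 and 28 in telencephalon. Fish 3, nearly without this contig in gut, had 28 counts in telencephalon, a trace beside the gut counts of the other fish. The gut counts of the isoform c4267/f1p0/829 were 15829, 11826 and 37 and its liver counts 590, 568 and 42, so fish 3 was low in both tissues.

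A model of tissue and replicate number tested for differences between the fish over all 12 libraries. It called 14 members (7.18%), near the 6.95% of all contigs tested, and 15 of the 314 other abundant gut contigs (4.78%). An unadjusted p under 0.05 was reached by 42 members, and the share of all contigs at that level was not taken. The share of members called was therefore close to that of all contigs tested, and single contigs are given as examples. FHM_All_PTA_Assem.151.C3 gave 11, 72835 and 18469 gut counts, 0, 3493 and 1747 in liver, 8, 4012 and 1660 in hypothalamus, and 33, 6390 and 2122 in telencephalon (edgeR adjusted p = 4.35e-05). Fish 1 had almost none in any tissue. FHM_All_PTA_Assem.19296.C1 was low in fish 2 instead, with 14618, 3545 and 14745 counts in gut, 41, 9 and 27 in liver, 19, 4 and 14 in hypothalamus, and 11, 0 and 12 in telencephalon (adjusted p = 0.00161, and 0.157 without the gut libraries). FHM_All_PTA_Assem.963.C2 showed the same low fish, at 33003, 8447 and 32710 gut counts and 31, 2 and 53 liver counts (adjusted p = 0.00363).

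In the 6 brain libraries alone, a comparison that the membership rule touches only through its cap, 17 members (8.72%) differed between the fish, against 4.57% of all contigs tested and 4.14% of the other abundant gut contigs. This comparison was added after the data were seen. At an unadjusted p under 0.05 there were 43, a count without a share of all contigs to set it against. Where both regions averaged 50 counts or more, 13 of 127 members (10.2%) passed, against 5.67% of 21756 contigs. Fish 1 was the highest in both regions for 15 of the 17, and this share was not taken over all called contigs. The brain libraries of fish 1 also stood apart across 22097 contigs of the whole table. There the deviations from the tissue mean correlated between the regions at 0.838 in fish 1, 0.341 in fish 2 and 0.432 in fish 3. The other pairs of tissues of fish 1 correlated at 0.472 to 0.565. Whether the fish or the handling of its brain libraries made the difference was not tested. By level, fish 1 was at least 2 times both other fish in both regions for 15 members with at least 50 counts, fish 2 for 1 and fish 3 for 1. The 15 were 11.6% of the 129 members with that many counts in fish 1, compared with 4.33% of 22020 contigs tested. Fish 1 was the highest gut library for 4 of these 15 and for 56 of all 195 members, a similar share.

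FHM_All_PTA_Assem.151.C10 was the most abundant of these. It had 64917, 9784 and 7705 counts in hypothalamus and 48281, 8221 and 9951 in telencephalon (adjusted p = 0.00172 in brain). Fish 1 was also the highest in liver, with 11688, 3616 and 6579 counts, and the lowest in gut with 94487. FHM_All_PTA_Assem.17.CB2 had 9181, 2384 and 1401 in hypothalamus, 6387, 1609 and 1885 in telencephalon, and an even 15116, 18808 and 13343 in gut (adjusted p = 0.0103). In another 3 members fish 1 was lowest in gut and liver and highest in brain. FHM_All_PTA_Assem.23128.C1 gave 461, 10563 and 11845 gut counts, 14, 234 and 277 in liver, 867, 5 and 16 in hypothalamus, and 448, 12 and 12 in telencephalon (adjusted p in brain = 0.00119). FHM_All_PTA_Assem.23393.C1 had 185, 7527 and 8600 in gut, 30, 101 and 168 in liver, 539, 16 and 19 in hypothalamus, and 400, 28 and 9 in telencephalon (adjusted p = 0.00180), and the isoform c13688/f1p0/1139 had 348, 7779 and 8652 in gut and 218, 6 and 25 in hypothalamus (adjusted p = 0.0278). In fish 1, the hypothalamus of the first and of FHM_All_PTA_Assem.23393.C1 had more raw counts than its gut, so their membership rests on fish 2 and fish 3. The gut level of fish 1 was also under 4 times that of its hypothalamus for FHM_All_PTA_Assem.151.C10 (5249 against 2211 CPM). The same held for FHM_All_PTA_Assem.17.CB2 (840 against 313 CPM) and c13688/f1p0/1139 (19.3 against 7.42 CPM). FHM_All_PTA_Assem.24139.C1 differed the other way, with 237, 538 and 1353 counts in hypothalamus, 163, 526 and 1561 in telencephalon and 46, 56 and 282 in liver, against 18387, 11126 and 18234 in gut (adjusted p = 0.00302 in brain). Contigs of this paragraph were chosen after their values were seen, other than FHM_All_PTA_Assem.151.C10.

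**Figure D5:**
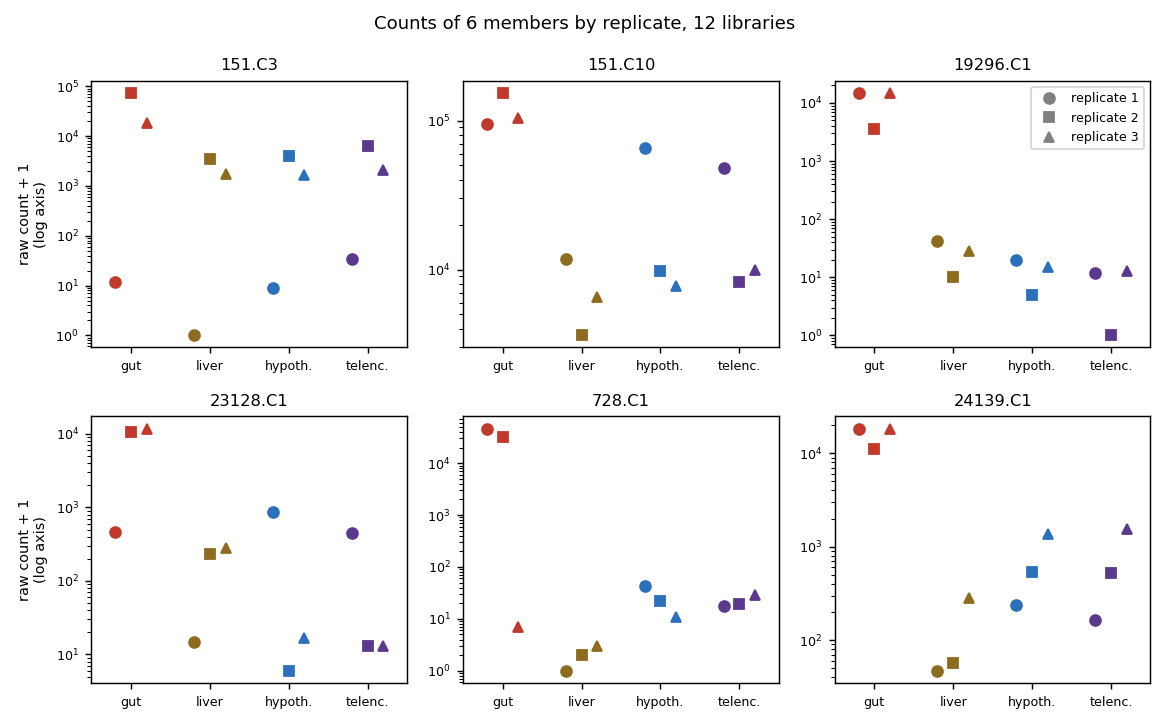
Raw count + 1 (log axis) of 6 members in gut, liver, hypothalamus (hypoth.) and telencephalon (telenc.), with the replicate as symbol shape. 151.C3 is near 0 in replicate 1 in all tissues, 19296.C1 is lowest in replicate 2, 728.C1 has 6 counts in gut 3, and 23128.C1 reverses between brain and gut in replicate 1.

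Assembly clusters place some of these differences among related sequences. The 166 members from this assembly lay in 159 clusters, of which 112 had a single contig in the table and 7 held 2 members each. These clusters hold 92 contigs that are not members. Of the 52 of these that averaged 50 or more counts in gut, 29 (55.8%) were also at least 4 times higher in gut than in each other tissue, compared with 7.09% of 18509 other contigs. An exception was FHM_All_PTA_Assem.11337.C1, with 10905, 14103 and 13301 liver counts next to 17907, 26188 and 24362 gut counts, beside the member FHM_All_PTA_Assem.11337.C2 of the same cluster. Reads that fitted several contigs were left out by the authors, so the counts of related contigs come from where their sequences differ.

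Cluster 151 was the largest, with 14 contigs in the table, and its contigs divided by fish in every tissue. FHM_All_PTA_Assem.151.C3 took 0.00855, 29.997 and 13.2% of the cluster's counts in the gut of fish 1, 2 and 3, 0, 35.0 and 13.9% in liver, 0.00912, 22.97 and 12.8% in hypothalamus, and 0.0510, 34.9 and 13.0% in telencephalon. FHM_All_PTA_Assem.151.CB3, which was not a member, did the reverse. It took 16.2, 0.938 and 1.86% in gut, 17.7, 4.15 and 5.48% in liver, 14.9, 2.74 and 5.07% in hypothalamus, and 14.2, 2.55 and 4.10% in telencephalon. FHM_All_PTA_Assem.151.C11, also not a member, took 1.57 to 4.31% in fish 3 and at most 0.655% in the other fish. Each fish thus had its own make-up of the cluster, which was held across 4 tissues. FHM_All_PTA_Assem.151.C10 and FHM_All_PTA_Assem.151.C1 were present in all libraries, with 36.2 to 74.6% and 5.35 to 24.9% of the cluster. Summed over contigs, the cluster gave 128665, 242805 and 140232 gut counts, 19418, 9986 and 12601 in liver, 87701, 17469 and 12987 in hypothalamus and 64691, 18324 and 16326 in telencephalon, so for the sum fish 1 was highest in liver and in both brain regions.

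Other clusters also changed make-up between fish in gut. In cluster 728, FHM_All_PTA_Assem.728.C1 took 22.6, 9.73 and 0.00247% of the counts in gut and 24.6, 8.08 and 5.15% in hypothalamus. In telencephalon it took 5.48, 7.47 and 21.7%, the reverse order of fish. Its brain shares rest on 10 to 42 counts per library, and it was not called between the fish (edgeR adjusted p = 0.864, all 12 libraries). FHM_All_PTA_Assem.728.C2 took the rest, so the sum of the cluster was 205825, 322997 and 243016 in gut. In cluster 631, FHM_All_PTA_Assem.631.C3 had 12466 and 8463 gut counts in fish 1 and 2 and 142 in fish 3, while FHM_All_PTA_Assem.631.C1, not a member, had 2, 676 and 2676. FHM_All_PTA_Assem.631.C2 had 7022, 5723 and 3656. In cluster 19995, FHM_All_PTA_Assem.19995.C2 had 4063, 6066 and 19520 gut counts and FHM_All_PTA_Assem.19995.C1 had 7190, 10974 and 14189, with FHM_All_PTA_Assem.19995.C3 under the threshold at 3541, 5510 and 4339. The members of cluster 1329 were both even in gut. In liver FHM_All_PTA_Assem.1329.C1 was far more uneven than FHM_All_PTA_Assem.1329.C2, as given above. In cluster 2785 the fish had the same order in both members in gut, with 16979, 11593 and 7159 counts for FHM_All_PTA_Assem.2785.C1. In cluster 3250, FHM_All_PTA_Assem.3250.CB1 had 15563, 18002 and 20375 counts in gut and FHM_All_PTA_Assem.3250.C7 had 3789, 5168 and 6078, and the 6 other contigs of the cluster had gut means of 1.33 to 805.

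By origin, 166 members (85.1%) were contigs of the clustered assembly, 16 (8.21%) were long-read isoforms, 7 were single sequences and 6 were expressed sequence tags. Over all contigs the assembly held 47.2% and isoforms held 10.2%. Among the other abundant gut contigs the assembly held 90.1%, more than among members, and isoforms held 2.55%. The member isoforms were 623 to 4088 bases long with a median of 1482, where the 4701 isoforms of the table had a median of 1237. The 8 isoforms among the other abundant gut contigs had a median of 1488.5, close to that of the members. Per kilobase, the gut counts of the member isoforms ran from 2789 to 86260 with a median of 5551. The highest per kilobase was c11177/f14p2/796, with 123693, 67410 and 14885 counts in gut, which again differed between the fish.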

How the data were processed

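Per the labels and the methods of the study, polyA RNA of gut, liver, hypothalamus and telencephalon was sequenced as paired reads. The authors trimmed the reads with cutadapt (quality 20, reads of at least 40 bases), mapped them with bowtie 2 (at most 3 mismatches), removed potential PCR duplicates, kept unique reads and used in-house scripts to count them. For the trimming, mapping and filtering tools, the sources used here give no versions. Both consensus contigs and zebrafish sequences are named in the methods as what reads were mapped to, while the names in the files belong to fathead minnow sequences. The deposited values are raw counts per contig, not normalized.

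The 12 lists were joined by name, with absent contigs set to 0. Groups and replicate numbers came from the sample labels, and no column was without a sample. The members, sets and lists were chosen with earlier results of these data known. TMM factors (0.616 to 1.40) were set by the 42878 contigs counted in 2 or more libraries of some tissue. The tests used edgeR 4.0.16 in R 4.3.3 (quasi-likelihood, each pair of tissues fitted alone, Benjamini-Hochberg adjusted p under 0.05). DESeq2 1.42.0 was an alternative, and the scripts were tested on simulated data. Fold changes are edgeR's fitted log2 values. Contigs were named by a rule: the 10 highest in gut, those nearest each threshold, at most 2 higher and 2 lower per pair of tissues, the 2 with the smallest adjusted p between fish, the 2 extremes of ratio and of gut spread, and the clusters with the most members. Others were chosen after their values were seen. Clusters with 2 members tied, so all 7 are given.

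To check pairing, the deviations of same-numbered libraries from their tissue means were correlated across 22097 contigs. All 18 correlations were above 0.1 (0.224 to 0.838). Replicates of a tissue differed with a chi-square of 14.7 to 80.4 per degree of freedom, so no library was a repeat of another. Reads have no molecular identifiers, so counts are not counts of molecules. Gene names were sought in the table of assembly fPimPro1.hap1.1 (64593 genes), and 0 matched. Sequences of the contigs were not used here.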

Additional observations from a re-analysis of the deposited data

How the results depend on the processing

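The number of members was 183 to 201 when each replicate number was left out of all tissues, 191 to 204 under other scalings and filters, 262 with a ratio of at least 2 and 145 with a ratio of at least 10. Without the 10 highest contigs of each library, the members held 19.1% of the gut counts and 0.671% of the liver counts. Members were 5 or 6 of the 10 highest contigs of each gut library, and the cause in liver was not tested. Leaving out each library in turn gave 69 to 93 members called for liver against telencephalon, 59 to 79 for liver against hypothalamus, and 0 to 5 for hypothalamus against telencephalon. Adding the fish as a replicate block gave 97, 79 and 6 called members, of which 84, 69 and 4 were among the 85, 71 and 4 called without it. DESeq2 called 12 for hypothalamus against telencephalon, where the cause was not tested. Between the fish, 9 members were called without the gut libraries, 5 without the hypothalamus libraries, 9 without the telencephalon libraries and 12 without the liver libraries, of 14 in all; fewer libraries entered these fits. In brain alone, a test added after seeing the data, 13 to 23 members were called under other tools, scalings and filters. Shares of all contigs were not taken for any of these alternative calls. Of 170 values of named contigs under alternatives, 147 kept direction and side of the threshold, 23 lost the call and 0 reversed, and 22 of the 23 were contigs called between the brain regions. The level that 3 counts stand for was highest in liver (0.291 to 0.302 CPM), and 26 members had a liver library at 0, so low liver levels are loose. Members at 0 numbered 18 in liver 1, 16 in liver 2 and 3 in liver 3. Liver 3 had the fewest counts in total, so the zeros did not follow depth among the liver libraries.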
